A study of Mus musculus with 4 samples.

Results

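The genes described here are 10 transcripts that mark mouse neutrophils or encode the contents of their granules: S100a8, S100a9, Ly6g, Camp, Ltf, Ngp, Mpo, Elane, Retnlg and Lcn2. They were taken by symbol from a count table of 54532 genes, in which all 10 were found. The table holds 4 libraries of cells bead-isolated with CD11b and F4/80 from subcutaneous NB9464 tumors, a murine MYCN-driven neuroblastoma, on day 40 after implantation and with no treatment. The mice were 4 to 6 weeks old at implantation and on a C57BL/6 background. By their labels, M7 and M8 (Syk MC-WT) came from wild type controls, and M9 and M10 (Syk MC-KO) from mice in which floxed Syk is recombined by LysM-Cre; the pairs of libraries are called WT-labelled and KO-labelled below. This Cre is driven by the lysozyme 2 locus, which is active in neutrophils as well as in monocytes and macrophages, so the allele is not restricted to macrophages. The labels name the cells macrophages, the extraction text also mentions bone marrow derived macrophages, and the table is named for an adoptive transfer. None of these sources says whether the libraries of a group came from different mice, so the p-values below measure the spread between these libraries, which may be technical.

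Neutrophils pack antimicrobial proteins into granules that form in sequence while the cell matures in the bone marrow. Primary granules, which hold myeloperoxidase and serine proteases, are made at the promyelocyte stage, and secondary granules, which hold lactoferrin, cathelicidin and lipocalin 2, are made after it, so transcripts of granule proteins are highest in marrow precursors and low in the circulating cell. S100A8 and S100A9 are different: they fill the cytosol of mature neutrophils, and their transcripts persist there and are also found in monocytes. CD11b, one of the antigens used for isolation, is carried by neutrophils and monocytes as well as by macrophages, while F4/80, the other, marks macrophages and is generally absent from neutrophils.

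C/EBP factors drive much of the granule program, so the stretches before the starts of the 3 members with the largest tested differences, S100a9, Retnlg and S100a8, are shown with the C/EBP-type letters TTNNGNAA in capitals on either strand. The sequences are RefSeq promoter windows of GRCm38.p6, written 5′ to 3′ in the direction of the gene and trimmed to bases outside annotated exons. They lie at chr3:90695722-90695971 (minus strand), chr16:48872358-48872607 (plus strand) and chr3:90668821-90668977 (plus strand).
S100a9: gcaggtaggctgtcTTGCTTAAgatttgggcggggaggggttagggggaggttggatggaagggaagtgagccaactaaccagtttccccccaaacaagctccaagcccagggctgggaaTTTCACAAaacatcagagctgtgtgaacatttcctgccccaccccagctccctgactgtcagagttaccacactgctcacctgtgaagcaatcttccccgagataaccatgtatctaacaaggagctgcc
Retnlg: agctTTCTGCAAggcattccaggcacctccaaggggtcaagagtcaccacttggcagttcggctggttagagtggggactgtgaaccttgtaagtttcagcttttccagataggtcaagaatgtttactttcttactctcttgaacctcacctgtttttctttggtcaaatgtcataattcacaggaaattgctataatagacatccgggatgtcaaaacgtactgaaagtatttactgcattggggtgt
S100a8: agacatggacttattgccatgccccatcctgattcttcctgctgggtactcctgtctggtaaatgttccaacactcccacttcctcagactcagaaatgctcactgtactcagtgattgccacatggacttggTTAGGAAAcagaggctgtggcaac
Windows from 250 bases before to 50 bases after the start held these letters for 7 of the 10 members, and for 40.7% of the 32851 windows of all genes. The Mpo, Elane and Camp windows did not hold them. A match of letters is a description of the window and not a binding site.

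The libraries held 20755886 to 23518045 counts, and 3 counts corresponded to 0.109 to 0.163 CPM. Here CPM is a gene's share of a library, after TMM scaling has adjusted library sizes to the bulk of genes. Syk, the targeted gene, had 765 and 569 counts in M7 and M8 and 4033 and 2944 counts in M9 and M10. It was thus higher in both KO-labelled libraries, by 2.80 on the log2 scale (SE 0.194, adjusted p = 0.000674, edgeR), which goes against the label. Scaled to the macrophage markers or to the pan-leukocyte genes described below, it differed by 0.06 (adjusted p = 0.914) and -0.39 (adjusted p = 0.229). If the labels or columns were exchanged, every difference given here would turn its sign, which was not tested. Reads over the exon removed by Cre cannot be told apart from others in a table of gene totals. Mitochondrial genes took 2.20% and 2.34% of counts in M7 and M8, 6.00% in M9 and 15.9% in M10. Macrophage transcripts rose with the same label. All 10 macrophage markers were called higher in the KO-labelled libraries, with a median log2 difference of 2.82, and their summed level was 895 to 1275 CPM against 6062 to 10129 CPM. In bulk RNA a larger share of a cell type and more of its RNA per cell cannot be told apart.

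S100A8 and S100A9, which pair to form calprotectin, a calcium- and zinc-binding protein complex, were the most abundant members in all 4 libraries and were both higher in the KO-labelled libraries. S100a9 (ENSMUSG00000056071, chr3:90692632-90695721, minus strand, GRCm38) had 235 and 406 counts in M7 and M8 and 4630 and 1744 in M9 and M10. The groups did not overlap, and M9 was 2.37-fold above M10 in CPM. In CPM the means were 12.5 ± 5.62 (SD, n = 2) and 160 ± 91.7 (SD, n = 2), a 12.8-fold difference (log2 3.67, SE 0.502, adjusted p = 0.00321, edgeR). S100a8 (ENSMUSG00000056054, chr3:90668978-90670035, plus strand) had 122 and 153 counts against 1365 and 485. It followed the same order of libraries, with M9 2.51-fold above M10. Its means were 5.34 ± 1.26 and 46.3 ± 28.2 CPM (SD, n = 2 each), which is 8.70-fold (log2 3.12, SE 0.462, adjusted p = 0.00416, edgeR). For each count of S100a8 there were 1.93 and 2.65 counts of S100a9 in M7 and M8 and 3.39 and 3.60 in M9 and M10. Together the pair made up 74.1% to 89.3% of the counts of all 10 members.

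Of the 2 members that identify the neutrophil itself, one was well counted and higher, and the other was at the limit of detection. Retnlg (ENSMUSG00000022651, chr16:48872621-48874496, plus strand) encodes resistin-like gamma, a secreted protein abundant in mature neutrophils. It had 25 and 58 counts in M7 and M8 and 423 and 278 in M9 and M10. Its means were 1.64 ± 1.02 and 17.8 ± 3.81 CPM (SD, n = 2 each), and the groups stood apart, by 10.9-fold (log2 3.45, SE 0.482, adjusted p = 0.00349, edgeR). Ly6g (chr15:75155240-75159126, plus strand), the surface antigen by which mouse neutrophils are sorted, was nearly absent from the counts. It had 2 and 0 counts in M7 and M8 and 5 and 1 in M9 and M10. Its groups overlapped in CPM, and it was below the filter on low counts. A count of 0 in M8 allows up to 0.122 CPM, so at 5 or fewer counts in each library a difference in Ly6g could not be resolved.

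**Figure D1:**
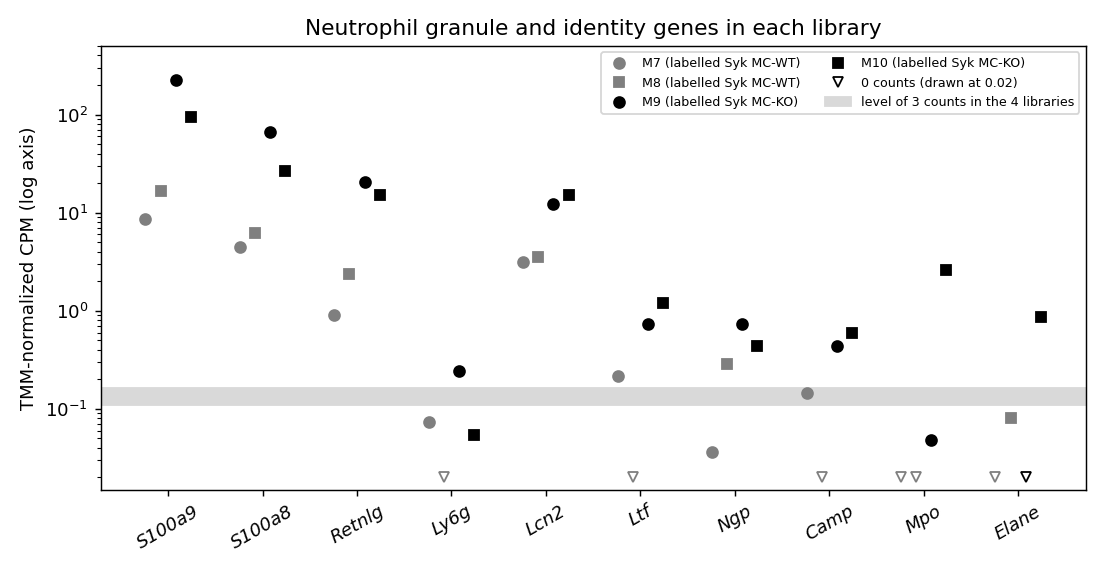
TMM-normalized CPM (log axis) of the 10 members, 1 point per library, with grey points for WT-labelled and black points for KO-labelled libraries; open triangles mark 0 counts and the band marks the level of 3 counts. S100a9, S100a8, Retnlg and Lcn2 stand above the band in all 4 libraries with the groups apart, while the other 6 members reach at most 2.62 CPM (Mpo in M10).

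Secondary granule genes split by depth into Lcn2 and 3 genes at the limit of detection. Lcn2 (ENSMUSG00000026822, chr2:32384633-32388252, minus strand), whose protein binds bacterial siderophores and which epithelia and macrophages also make, had 87 and 86 counts in M7 and M8 and 253 and 278 in M9 and M10. Its means were 3.34 ± 0.232 and 13.7 ± 2.03 CPM (SD, n = 2 each), a 4.11-fold difference (log2 2.04, SE 0.284, adjusted p = 0.00346, edgeR). Of the 4 members that rose it had the smallest fold, and it was the only one of these 4 that was higher in M10 than in M9 in CPM (15.1 against 12.3), an order that turned in TPM (9.56 against 10.3), which is not TMM-scaled. Ltf (ENSMUSG00000032496, chr9:111019271-111042767, plus strand), which encodes the iron-binding lactoferrin, had 6 and 0 counts against 15 and 22. It passed the low-count filter only through the KO-labelled libraries, and its log2 difference of 3.03 (SE 1.18) did not pass the test (adjusted p = 0.0851, edgeR). When every gene with at least 1 count was tested, its adjusted p was 0.0358. Camp (chr9:109847379-109849617, minus strand), the cathelicidin gene, had 4 and 0 counts against 9 and 11. Ngp (chr9:110419747-110423012, plus strand), the neutrophilic granule protein gene, had 1 and 7 against 15 and 8. Both were below the filter, and neither passed when all genes with a count were tested (adjusted p = 0.181 and 0.320, edgeR).

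The primary granule members were detected in M10 and hardly elsewhere. Mpo (chr11:87793581-87804413, plus strand), which encodes myeloperoxidase, had 0 counts in M7 and in M8, 1 in M9 and 48 in M10. Elane (chr10:79886247-79888215, plus strand), the neutrophil elastase gene, had 0, 2, 0 and 16 counts in M7, M8, M9 and M10. Neither reached the main filter. Tested with every gene that had at least 1 count, Mpo was called (adjusted p = 1.95e-05, edgeR) and Elane was not (adjusted p = 0.166), but the Mpo call rests on M10, because M9 with its 1 count lies within the 0.109 CPM that 0 counts allow in M7. Mpo also overlaps the antisense gene Gm11505, and whether counting used strand is not given in the sources used here.

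Of the 10 members, 5 passed the low-count filter, and 4 of those were called higher and 0 lower by edgeR. At an unadjusted p under 0.05, 5 were higher and 0 lower. The 5 higher ones included Ltf, which passed the filter only through the KO-labelled libraries. Of the 16451 genes tested, 8211 had an unadjusted p under 0.05 in either direction. DESeq2 called 5 of the 10 members higher (the 4 and Mpo) and 0 lower, where it called 3582 of 26596 genes higher. At the adjusted threshold edgeR called 22.7% of the 16451 genes tested higher in the KO-labelled libraries and 16.7% lower. Counting overlap alone, 8 of the 10 members had both KO-labelled libraries above both WT-labelled ones. For Mpo this rests on 1 count in M9 against 0 in M7 and in M8. Of the genes tested 38% did so, a base that leaves out the members below the filter. With every gene of at least 1 count in the test, 6 of the 10 members were called higher (the 4, Ltf and Mpo), where 15.7% of the 26596 genes were. With 2 libraries a group, an exact two-sided permutation test of 1 gene cannot go below p = 0.333, so the calls rest on the spread that edgeR shares across genes. Leaving out M9 brought 7 of 8 tested members past the threshold, with Ltf, Mpo and Elane added, where 24.8% of the 17463 genes in that fit were called higher. M10 then stood alone for its group, and Ltf, Mpo and Elane entered the test only through it. The log2 difference ranged from 2.84 to 4.21 for S100a9, from 2.22 to 3.65 for S100a8, from 2.91 to 4.27 for Retnlg, from 1.89 to 2.10 for Lcn2 and from 2.10 to 7.36 for Ltf as each library was left out in turn.

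Levels between genes were compared per transcript length, in TPM computed from exon lengths. TPM was not TMM-scaled, and folds between the groups were smaller in it than in TMM-scaled CPM. In the KO-labelled libraries the mean TPM was 624 for S100a9, 137 for S100a8, 59.2 for Retnlg and 9.93 for Lcn2. In the WT-labelled libraries the order was the same, with 93.7, 30.1, 10.7 and 4.99 TPM. The ratios of these means were 6.66 for S100a9, 4.54 for S100a8, 5.52 for Retnlg and 1.99 for Lcn2. The remaining 6 members had mean levels of 0.331 to 1.29 TPM in the first group and 0 to 0.508 TPM in the second, and at these counts their order cannot be read.

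The same differences were then read against the leukocyte content of each library, since macrophage, monocyte and pan-leukocyte transcripts all rose with the label. When libraries were scaled to the geometric mean of the 10 macrophage markers, none of the 5 tested members was called in either direction by edgeR, and 0 had an unadjusted p under 0.05. S100a9 then differed by 0.72 on the log2 scale (SE 0.546, adjusted p = 0.206, edgeR), Retnlg by 0.56 (SE 0.741, adjusted p = 0.470) and S100a8 by 0.19 (SE 0.593, adjusted p = 0.758). Lcn2 had the opposite sign, at -0.67 (SE 0.700, adjusted p = 0.360). With standard errors of 0.546 to 0.741, these estimates do not tell a moderate excess from a moderate deficit relative to macrophage transcripts. Scaled to 6 pan-leukocyte genes such as Ptprc, which encodes CD45, the differences were 0.34 for S100a9 (SE 0.416, adjusted p = 0.437), 0.17 for Retnlg (SE 0.612, adjusted p = 0.795), -0.19 for S100a8 (SE 0.443, adjusted p = 0.683) and -1.13 for Lcn2 (SE 0.518, adjusted p = 0.0509). Lcn2 was the only one of the 5 with an unadjusted p under 0.05 there, on the lower side. These scalings moved the median over all tested genes from 0.02 to -2.71 and -3.17. They called 0.784% and 0.565% of genes higher and 85.9% and 90.4% lower.

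**Figure D2:**
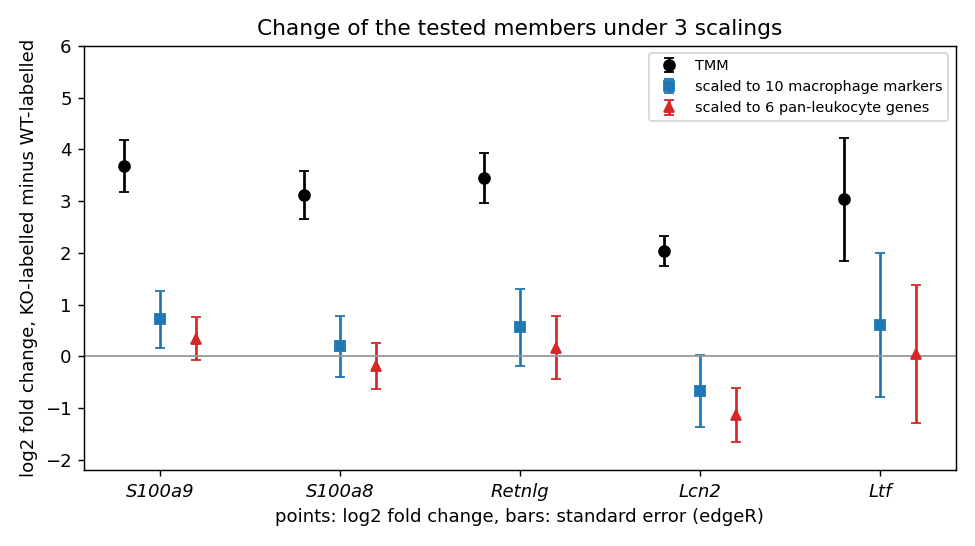
Log2 fold change (KO-labelled minus WT-labelled libraries; bars, standard error from edgeR) of the 5 tested members under TMM, macrophage-marker and pan-leukocyte scaling. The TMM values lie between 2.04 and 3.67, and the values under the other 2 scalings lie between -1.13 and 0.72.

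Counted against the summed counts of the 10 macrophage markers, the 4 members that were called higher did not separate by label. S100a9 had 6.72 and 18.5 counts per 1000 macrophage-marker counts in M7 and M8 and 22.2 and 15.7 in M9 and M10. The M7 library was the low one, and M8 lay between M9 and M10. S100a8 had 3.49 and 6.96 against 6.54 and 4.36, and Retnlg 0.715 and 2.64 against 2.03 and 2.50, so that M8 was the highest library for both. Lcn2 had 2.49 and 3.91 against 1.21 and 2.50. The groups overlapped for all 4 genes, for Lcn2 by the M7 and M10 libraries alone, which were nearly equal. Per 1000 counts of the pan-leukocyte genes Lcn2 did stand apart on the lower side, with 8.22 and 11.7 in M7 and M8 against 2.98 and 5.08 in M9 and M10, while S100a9, S100a8 and Retnlg overlapped again. The share of all genes that stood apart on this measure was not computed. Under the pan-leukocyte scaling 90.4% of all genes tested were called lower by edgeR. The median over all genes was -3.17 there, so Lcn2 at -1.13 fell less than most.

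**Figure D3:**
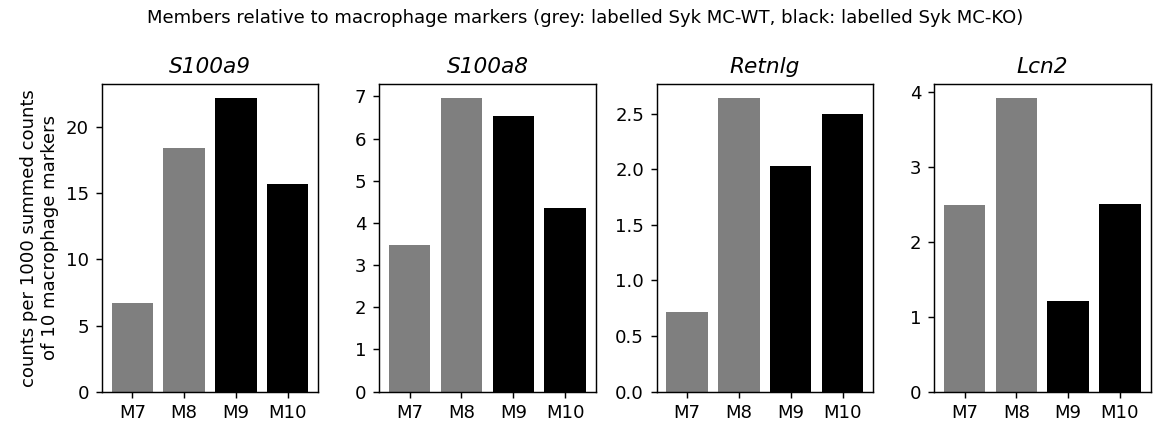
Counts of S100a9, S100a8, Retnlg and Lcn2 per 1000 summed counts of 10 macrophage markers in each library (bars from 0; grey, labelled Syk MC-WT; black, labelled Syk MC-KO). The groups overlap in each panel; S100a9 runs from 6.72 in M7 to 22.2 in M9.

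Further neutrophil genes, in lists that also serve macrophages and monocytes in part, showed the same pattern. The lists include attractants, a growth factor and receptors of member proteins. Of the 39 genes in these lists 33 were tested, and 31 were higher and 1 was lower in the KO-labelled libraries, with a median log2 difference of 2.86. Over all genes tested, 22.7% were called higher and 16.7% lower. Of the 33, Olfm4, Cebpe and Cxcl5 passed the low-count filter only through the KO-labelled libraries, so their calls are no support. Padi4 reached the cutoff in M7 but not in M8, so its entry also needed the KO-labelled libraries. The lists were put together with earlier results of these data known. Scaled to the macrophage markers, 3 of the 33 were higher (Trem1, Padi4 and Cxcl3) and 6 lower (Mmp9, Hp, Cebpd, Cxcl1, Ager and Slc22a17). Scaled to the pan-leukocyte genes 2 were higher (Trem1 and Cxcl3) and 9 lower (the same 6 with G0s2, Cebpb and Tlr4). Of all genes tested, the macrophage and pan-leukocyte scalings called 0.784% and 0.565% higher and 85.9% and 90.4% lower.

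Granule genes outside the 10 that had enough counts for a test were all called higher after TMM scaling. Prtn3, which encodes proteinase 3, was the only one of 4 other primary granule genes that could be tested, with 23 and 32 counts against 210 and 103 (log2 2.88, SE 0.488, adjusted p = 0.00633, edgeR). Ctsg, the cathepsin G gene, had 2 and 7 counts against 2 and 0, Prss57 had 8 counts in M8 and 0 in the others, and Ms4a3, a marker of granulocyte and monocyte progenitors, had 0 in all 4 libraries. Prtn3 was thus the only primary granule gene, members included, with more than 48 counts in a library. The 7 other secondary and tertiary granule genes were called higher, 1 of them (Olfm4) having entered the test only through the KO-labelled libraries. Mmp8, neutrophil collagenase, had 135 and 82 counts against 1181 and 572 (log2 3.42, SE 0.368, adjusted p = 0.00162). Mmp9, gelatinase B, differed least, with 1386 and 942 against 1847 and 1244 (log2 0.83, adjusted p = 0.0255). Its mean TPM ran the other way, 49.4 against 43.7, and relative to the macrophage markers it was lower (-1.92, adjusted p = 0.00102). Cd177, a neutrophil surface and granule glycoprotein, differed by 3.45 (adjusted p = 0.00468), Chil3 by 2.82 (adjusted p = 0.00101), Olfm4, at 7 and 4 counts against 32 and 18, by 2.56 (adjusted p = 0.0332), Pglyrp1, a peptidoglycan-binding protein, by 2.08 (adjusted p = 0.0210) and the haptoglobin gene Hp by 1.22 (adjusted p = 0.00698). The Olfm4 call was lost under DESeq2 (adjusted p = 0.0662), with library size only, and without M7, M8 or M9. The Pglyrp1 call was lost without M7 and without M8, the Mmp9 and Hp calls without M8, and the Mmp9 call with library size only. Hp was lower relative to the macrophage markers (-1.46, adjusted p = 0.0136).

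Receptors that guide and activate neutrophils rose together, with all 7 tested genes of 8 called higher and a median of 3.59. Of all genes tested 22.7% were called higher, and the median of the pan-leukocyte genes was 3.47. Csf3r, the G-CSF receptor, had 234 and 272 counts against 1551 and 937 (log2 2.69, adjusted p = 0.00124, edgeR). Cxcr2, the receptor for CXCL1 and its relatives, had 57 and 78 against 412 and 246 (log2 2.67, adjusted p = 0.00302). Trem1, which amplifies myeloid inflammatory signals, had 89 and 93 against 1728 and 927 (log2 4.26, SE 0.306, adjusted p = 0.000716). It was also higher relative to the macrophage markers (1.42, adjusted p = 0.0207) and to the pan-leukocyte genes (1.003, adjusted p = 0.0281). The formyl peptide receptor genes Fpr1 and Fpr2 differed by 3.59 and 3.96 (adjusted p = 0.00469 and 0.00120) and the decoy receptor gene Il1r2 by 2.86 (adjusted p = 0.00115). Of the 7, only Trem1 was called under the macrophage or the pan-leukocyte scaling. Relative to the macrophage markers Csf3r differed by -0.14, Cxcr2 by -0.18, Il1r2 by 0.03, Fpr1 by 0.70 and Fpr2 by 1.20. Mrgpra2b, with 2 and 4 counts against 24 and 8, was not tested.

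All 6 late cytosolic genes were higher, with a median of 2.91. Padi4, which citrullinates histones during neutrophil extracellular trap release, had 27 and 8 counts against 449 and 205 (log2 4.63, SE 0.6003, adjusted p = 0.00277, edgeR), and remained higher relative to the macrophage markers (1.93, adjusted p = 0.0267) but not to the pan-leukocyte genes (1.45, adjusted p = 0.0515). In M8 Padi4 lay at 0.326 CPM, below the low-count cutoff of 0.437 CPM, and its entry to the test needed the KO-labelled libraries. Wfdc21 differed by 3.38, the histidine decarboxylase gene Hdc by 3.07, the stefin gene Stfa2l1, which has close copies, by 2.74, G0s2 by 2.21 and Asprv1 by 2.18. Among transcription factors of granulopoiesis, 5 of 6 were tested and called higher, 1 of them (Cebpe) having entered the test only through the KO-labelled libraries. Cebpe, which drives the secondary granule genes, had 0 and 2 counts against 32 and 28 (log2 5.12, SE 1.07, adjusted p = 0.0126). Its call was lost without M7 and without M8. Spi1, which encodes PU.1 and also acts in macrophages, differed by 3.32 (adjusted p = 0.000898), Cebpa by 3.14 (adjusted p = 0.00103), Cebpb by 1.75 (adjusted p = 0.00136) and Cebpd by 1.62 (adjusted p = 0.00262). Gfi1, needed for the promyelocyte stage, had 4 and 5 counts against 2 and 0 and was not tested.

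Chemokines that attract neutrophils through CXCR2 were called higher after TMM scaling as well. Of these, only Cxcl3 was also called higher relative to the macrophage markers and to the pan-leukocyte genes. Cxcl2 had 1936 and 2156 counts against 28859 and 13379 (log2 3.75, adjusted p = 0.00130, edgeR). It did not pass relative to the macrophage markers (0.88, adjusted p = 0.139) or the pan-leukocyte genes (0.47, adjusted p = 0.210). Cxcl3 had 376 and 437 against 8726 and 3162 (log2 4.24, SE 0.461, adjusted p = 0.00167), and it was also higher relative to the macrophage markers (1.33, adjusted p = 0.0204) and the pan-leukocyte genes (0.94, adjusted p = 0.0260). Cxcl5, with 4 and 3 counts against 44 and 41, entered the test only through the KO-labelled libraries (log2 3.97, adjusted p = 0.00635). Neither scaling left Cxcl5 past the threshold (macrophage 1.33, adjusted p = 0.313, and pan-leukocyte 0.85, adjusted p = 0.437). Cxcl1, which many stromal cells make, differed by 0.84 (adjusted p = 0.0218). The mean TPM of Cxcl1 was lower in the KO-labelled libraries (187 against 168), and it was called lower relative to the macrophage markers (-1.96, adjusted p = 0.00113) and the pan-leukocyte genes (-2.39, adjusted p = 8.79e-06). The Cxcl1 and Cxcl5 calls were lost without M7 and without M8, and the Cxcl1 call also with library size only. Csf3, the G-CSF gene, had 4 and 1 counts against 20 and 8 and was not tested. Of the receptors that bind proteins of the 10 members, Tlr4, a receptor for calprotectin, was higher by 1.83 (adjusted p = 0.0102) and lower relative to the pan-leukocyte genes (-1.43, adjusted p = 0.00174). Ager, another, differed by -0.71 and did not pass (adjusted p = 0.342), and Slc22a17, the lipocalin 2 receptor, fell from 1995 and 2030 counts to 294 and 502 (log2 -1.90, SE 0.308, adjusted p = 0.00547). Slc22a17 was the only one of these 33 genes to be called lower.

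**Figure D4:**
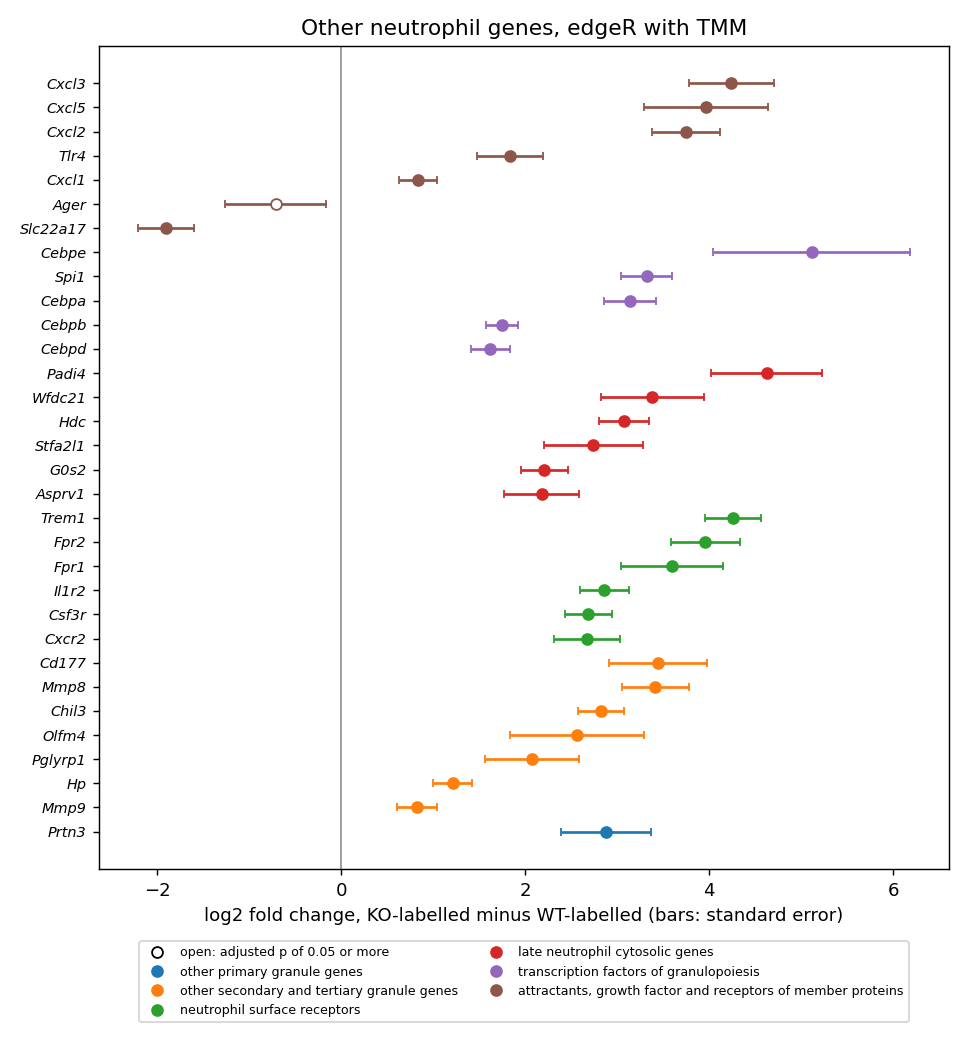
Log2 fold change (KO-labelled minus WT-labelled libraries; bars, standard error, edgeR with TMM) of tested neutrophil genes outside the 10, colored by list, with open symbols for an adjusted p of 0.05 or more. All but Ager and Slc22a17 lie above 0 and are filled, and Padi4 and Cebpe lie highest among the late cytosolic genes and the transcription factors.

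Markers of other cells moved with the label too, and their part in the member values was not tested. All 4 monocyte markers were higher, with a median of 3.65 and a summed level of 14.8 and 15.1 CPM against 251 and 195 CPM; one of them, Ccr2, was higher relative to the macrophage markers (1.36, adjusted p = 0.0175, edgeR). All 6 pan-leukocyte genes were higher, with a median of 3.47 and 299 to 386 against 2984 to 4127 CPM. Fibroblast markers were lower for 5 of 8, with a median of -1.49, and Col1a1 alone had 155298 and 163208 counts against 37306 and 45440. Among epithelial markers, which matter for Lcn2, Krt8 had 9 and 4 counts against 149 and 34 and Epcam 3 and 1 against 74 and 11, and both were called higher, having passed the filter only through the KO-labelled libraries. Krt18, below the filter, had 7 and 3 against 125 and 6, Krt5 had 162 and 79 against 54 and 121 (log2 0.01, adjusted p = 0.990), and Krt14 had 2 or 3 counts in each library. Of the eosinophil markers, Epx and Prg3 had 0 counts in all 4 libraries and Prg2 had 1 and 3 counts against 0 and 0. Ccr3 was called higher, though in M7 it was below the low-count cutoff. Siglecf was called higher but passed the filter only through the KO-labelled libraries. T cell markers were called higher for 4 of 5, of which Cd3d, Cd3e and Cd3g passed the filter in that way, and B cell markers for 0 of 3 tested. Of the tumor cell markers, Th and Dbh were at 0 counts in all 4 libraries, Isl1 had 4 or 5 counts in each library, and Hand2 had 7182 and 7403 against 3666 and 5257 (log2 -0.28, adjusted p = 0.418).

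The KO-labelled libraries differed from each other in which neutrophil genes stood highest. M9 was above M10 in CPM for all 6 late cytosolic genes, for 7 of 8 surface receptors and for all 10 macrophage and all 4 monocyte markers. It was also above M10 for all 6 pan-leukocyte genes, and the share over all genes was not computed. The same order held for 4 of the 7 other secondary and tertiary granule genes and for Prtn3. Of the 10 members 5 were higher in M9, namely S100a9, S100a8, Retnlg, Ly6g and Ngp, where Ly6g rests on 5 counts against 1 and Ngp on 15 against 8. The other 5 (Lcn2, Ltf, Camp, Mpo and Elane) were higher in M10 in CPM (Lcn2 not in TPM), the library with the larger mitochondrial share. Apart from Lcn2 these 5 had at most 48 counts in a library, and no test applies to single libraries.

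The genes whose pattern over the 4 libraries was most like that of S100a9, among 14190 genes of at least 1 CPM on average and outside all lists, were Samsn1, Nlrp3, Tnf, Flrt3 and Clec4d. Likeness was the Euclidean distance between log2(CPM + 0.5) values centred on each gene's mean, which was 0.536, 0.555, 0.567, 0.583 and 0.598 in that order. Clec4d, a C-type lectin receptor of myeloid cells, had 221 and 208 counts against 3317 and 1291. Samsn1, a hematopoietic adaptor protein gene, had 103 and 140 against 1281 and 654. Both had M9 highest and the groups apart, as S100a9 did. With 4 libraries in 2 groups, likeness mostly restates the group difference and the M9 to M10 ratio.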

How the data were processed

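The authors isolated cells with CD11b and F4/80 beads and sequenced polyA-enriched RNA; the labels give paired 150 base reads on a NovaSeq and the methods single reads in triplicate on a HiSeq2000, and 2 libraries a group are analysed here. Reads were mapped to mm10 with STAR 2.6.1d and quantified with Salmon 1.4.0, and the deposited values are whole-number counts per gene; how Salmon's estimates became whole numbers, and strandedness, are not given in the sources used here. Of 54532 gene identifiers, 54409 matched GENCODE M21, which gave symbols, positions and the exon lengths for TPM. No value column belonged to another sample (0). Counts were tested with the edgeR 4.0.16 quasi-likelihood test (TMM, filterByExpr, genotype label as the only term, Benjamini-Hochberg over 16451 genes, threshold 0.05), with R 4.3.3; the code was tested on simulated data. SE is the log2 fold change divided by the square root of F. The authors used DESeq2, run here as an alternative (version 1.42.0). Other alternatives were DESeq2's size factors in edgeR, no TMM factors, a looser filter (at least 1 count anywhere) and a stricter one (10 or more per library), scaling to the macrophage markers or pan-leukocyte genes, leaving out mitochondrial and ribosomal-RNA-like genes, and leaving out each library. Libraries of a group differed beyond counting noise (chi-square per degree of freedom 50.6 for the WT-labelled libraries and 168 for the KO-labelled), so no pair was treated as repeat deposits of 1 library; this does not show that they came from separate mice. The members and the gene lists were chosen with earlier results of these data known. Named genes were all members, genes of the other neutrophil lists that passed the threshold or encode a ligand, receptor or transcription factor, Syk, and the 5 genes outside the lists most like S100a9. Untested list genes and markers of other cell types are named outside this rule, after their values were seen. Items withheld from the text are not reported here by name, though they stay in the list counts. Promoter windows came from RefSeq on GRCm38.p6.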

Additional observations from a re-analysis of the deposited data

How the results depend on the processing

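S100a8, S100a9, Retnlg and Lcn2 stayed higher and past the threshold under every alternative run except the scalings to the macrophage markers and to the pan-leukocyte genes, under which 0 and 0 members were called. Under these, S100a8 changed sign to -0.19 (pan-leukocyte) and Lcn2 to -0.67 (macrophage) and -1.13 (pan-leukocyte), without passing the threshold. Members called higher numbered 4 to 7 as each library was left out, with 7 without M9; the library then alone in its group is assumed to vary like the other group. Ltf passed with all genes of at least 1 count and without M9, and could not be tested at 10 counts in every library. Of the other neutrophil genes, 3 and 2 were higher and 6 and 9 lower under the macrophage and pan-leukocyte scalings, against 31 and 1. Over all genes, the 3729 higher and 2747 lower calls became 1677 and 5411 with library size only, 129 and 14132 with macrophage scaling, 93 and 14873 with pan-leukocyte scaling, and 1478 to 5010 and 807 to 4745 as each library was left out. Higher calls were 57.6% of all calls under TMM, 23.7% with library size only, and 0.905% and 0.621% under the leukocyte scalings. No paired analysis was possible because the groups share no replicate numbers. Depth limits Camp, Ngp, Ly6g, Mpo and Elane, which were below the filter.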

Other observations

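Granule protease genes of another cell type, the connective tissue mast cell, included 1 that was called lower among 4 tested, where 16.7% of all genes were called lower. Cma1, which encodes a chymase, had 35 and 63 counts in M7 and M8 and 6 and 2 in M9 and M10. It passed the low-count filter only through the WT-labelled libraries, so its call is no support. The call was lower in the KO-labelled libraries by edgeR (log2 -3.21, SE 0.802, adjusted p = 0.0224). The other mast cell genes tested did not pass. The chymase gene Mcpt4 had 30 and 64 counts against 19 and 2 (log2 -1.81, adjusted p = 0.186), the tryptase gene Tpsb2 had 40 and 79 against 26 and 8 (-1.44, adjusted p = 0.1604) and Cpa3, mast cell carboxypeptidase A, had 14 and 44 against 13 and 9 (-1.02, adjusted p = 0.347). Fcer1a, the alpha chain of the IgE receptor, had 11 and 8 counts against 0 and 0 and was below the filter, as was the basophil protease gene Mcpt8, with 1 count in M9 and 0 in the others. When every gene with at least 1 count was tested, Fcer1a entered only through the WT-labelled libraries. It was called lower (adjusted p = 0.0447, edgeR), where 3376 of 26596 genes were. Mcpt8 was not called (adjusted p = 0.635, edgeR), and DESeq2 did not call Fcer1a (adjusted p = 0.109).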
